A study of Mus musculus with 50 samples.

Results

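The heat shock chaperones described here are 10 genes, taken by gene symbol from the deposited table: Hspa1a, Hspa1b, Hspa8, Hsph1, Hsp90aa1, Dnajb1, Bag3, Hspb1, Hspd1 and Hspe1. They are 10 of the 56691 genes in the table, and all 10 were among the 17928 genes with enough reads to test. Their RNA was measured by sequencing of poly(A) RNA from the distal colon of 50 mice labelled BALBC, an inbred strain, with 10 mice in each of 5 groups. The sham group carries no colitis label. The other 4 groups were given trinitrobenzene sulfonic acid (TNBS), a hapten that causes an acute inflammation of the colon, and then either vehicle or the compound A1007 at 10, 30 or 90 mpk, the dose unit of the labels. The series names the compound YUQ-A1007, an agonist of the aryl hydrocarbon receptor that is taken by mouth and acts mainly in the gut. All mice shared 1 batch label, and the labels give no age or sex. The labels describe the 10 samples of a group as separate mice.

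Chaperones bind proteins that are not folded and keep them from clumping until they reach their folded form. Cells make some of them at all times and others in bursts after heat, oxidative damage, inflammation or a block of protein breakdown, when the transcription factor HSF1 binds repeated GAA units, called heat shock elements, in front of their genes. In the gut the inducible HSP70 proteins and the small heat shock protein HSP25, the product of mouse Hspb1, are made by epithelial and muscle cells and are known for limiting damage to the epithelial barrier.

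The start-site windows of the genes are shown because heat shock elements were searched for in them, and because they show how alike the members of each pair are. RefSeq windows on build GRCm38.p6 ran from 250 bases before to 50 bases after a transcript's start, and 11 such windows were matched by symbol for 8 of the 10 genes. The Hspa1a window lies at chr17:34972107-34972406 on the minus strand, the Hspa1b window at chr17:34959189-34959488 on the minus strand, and the Hspb1 window at chr5:135887669-135887968 on the plus strand. The Hsph1 window lies at chr5:149636266-149636565 on the minus strand, the Hspe1 window at chr1:55087898-55088197 on the plus strand, and the Dnajb1 window at chr8:83607925-83608224 on the plus strand. Each is printed 5′ to 3′ along its gene, and capitals mark matches to a 2-unit heat shock element, GAANNTTC or TTCNNGAA, searched on both strands and merged where they overlap.
Hspa1a: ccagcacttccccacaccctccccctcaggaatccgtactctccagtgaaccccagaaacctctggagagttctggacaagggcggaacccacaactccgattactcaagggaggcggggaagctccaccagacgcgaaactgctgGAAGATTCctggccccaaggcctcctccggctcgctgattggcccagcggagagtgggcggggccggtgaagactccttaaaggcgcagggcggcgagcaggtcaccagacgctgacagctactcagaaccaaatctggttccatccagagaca
Hspa1b: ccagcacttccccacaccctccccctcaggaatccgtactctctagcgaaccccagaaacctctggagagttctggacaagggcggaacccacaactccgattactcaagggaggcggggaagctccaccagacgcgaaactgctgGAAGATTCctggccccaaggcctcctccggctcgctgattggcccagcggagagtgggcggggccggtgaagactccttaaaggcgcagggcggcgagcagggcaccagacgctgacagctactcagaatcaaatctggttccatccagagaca
Hspb1: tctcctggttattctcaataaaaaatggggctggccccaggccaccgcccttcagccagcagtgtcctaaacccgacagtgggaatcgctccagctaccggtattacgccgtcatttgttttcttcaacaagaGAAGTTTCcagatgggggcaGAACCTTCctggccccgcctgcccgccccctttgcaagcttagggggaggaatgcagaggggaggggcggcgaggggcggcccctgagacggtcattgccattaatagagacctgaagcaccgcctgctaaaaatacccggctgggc
Hsph1: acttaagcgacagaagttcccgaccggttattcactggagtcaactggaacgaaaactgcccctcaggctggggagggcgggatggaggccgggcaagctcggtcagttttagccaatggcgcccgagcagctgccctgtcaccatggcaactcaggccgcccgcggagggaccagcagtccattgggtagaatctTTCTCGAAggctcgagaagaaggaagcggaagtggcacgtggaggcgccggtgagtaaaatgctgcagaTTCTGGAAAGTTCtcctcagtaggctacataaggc
Hspe1: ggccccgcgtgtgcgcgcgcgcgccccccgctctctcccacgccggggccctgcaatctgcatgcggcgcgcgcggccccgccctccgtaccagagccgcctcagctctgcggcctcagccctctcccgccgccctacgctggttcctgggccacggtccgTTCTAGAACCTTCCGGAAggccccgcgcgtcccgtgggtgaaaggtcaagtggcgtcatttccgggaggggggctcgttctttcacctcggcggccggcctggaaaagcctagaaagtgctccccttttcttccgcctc
Dnajb1: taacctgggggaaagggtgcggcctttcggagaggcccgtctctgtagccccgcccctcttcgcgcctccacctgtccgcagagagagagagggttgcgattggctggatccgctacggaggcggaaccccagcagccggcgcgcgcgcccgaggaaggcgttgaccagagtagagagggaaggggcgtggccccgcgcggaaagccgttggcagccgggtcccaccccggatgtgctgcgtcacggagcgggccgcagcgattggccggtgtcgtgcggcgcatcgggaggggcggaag

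The windows of Hspa1a and Hspa1b differed at 4 of 300 bases, and each held a single 2-unit element, from 104 to 97 bases before the start. The Hspb1 window held 2 such elements, the first bases of which lay 117 and 97 bases before the start. A 3-unit element, GAANNTTC followed by NNGAA or the reverse complement of that run, was found in the windows of 3 of the 8 genes, Hsph1, Hspd1 and Hspe1. In Hsph1 it lay 16 to 28 bases after the start. Hspe1 and Hspd1 are neighbours that point away from each other, with start sites 216 bases apart, so their windows shared 285 bases as reverse complements. A single stretch with 2 overlapping 3-unit elements therefore served both windows: it ran from 89 to 72 bases before the Hspe1 start and from 144 to 127 bases before the Hspd1 start. The Bag3 window (chr7:128523333-128523632, plus strand) held a single 2-unit element 43 bases after the start. The windows of Dnajb1 and of a second Hspd1 start held none of these letters. The search took exact letters only, so an element that departs from them was not marked. Among all 32851 windows in the table, 0.603% held a 3-unit element, 15.1% held a 2-unit element at least once and 1.96% held 2 or more.

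**Figure D1:**
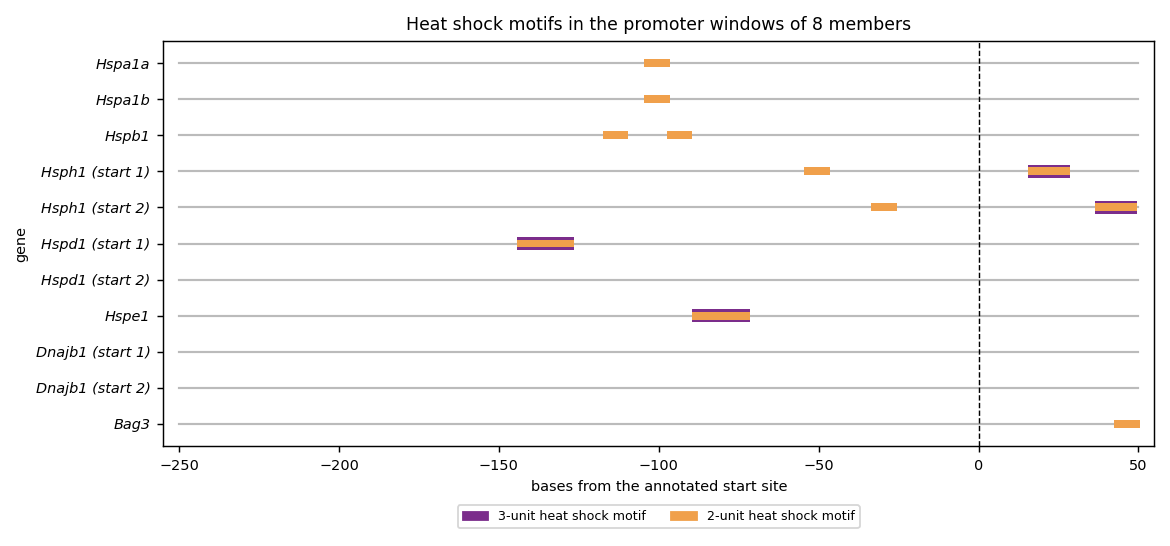
Positions of heat shock element matches in the RefSeq start-site windows of 8 heat shock chaperone genes. The x axis is the distance from the transcript start in bases and each line is 1 window; marks show 2-unit and 3-unit matches. Hspa1a and Hspa1b carry their mark at the same place, and the 3-unit marks sit in the Hsph1, Hspd1 and Hspe1 windows.

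The libraries held between 14373337 and 20446967 reads counted to genes, and the 10 genes took from 0.1988% to 0.4338% of them. None of the 225 pairs of libraries within a group held identical values. In 1 library, vehicle replicate 6, pancreatic acinar genes summed to 38180 fragments per kilobase scaled to library size (FPKM), and the 2 mice 10 mpk replicate 6 and 30 mpk replicate 1 held 0.05 and 0.1 FPKM of Xist against a median of 34.02, a mark of female cells. The counts of heat shock chaperones called against vehicle at 10, 30 and 90 mpk, 4, 7 and 0, were the same numbers without vehicle replicate 6 and without the 2 mice low in Xist. All 9 colonic epithelial markers were present, with a summed level from 5769 to 8044 FPKM in sham mice. In whole tissue a smaller number of cells of a type and less RNA per cell cannot be told apart.

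On the FPKM scale, which is per length of transcript, Hspa8 was the most abundant of the 10 genes in every group. Its product, HSC70, is the HSP70 that cells make at all times, and its level in sham mice was 289.6 ± 51 FPKM (mean ± SD, n = 10). In sham mice it was followed by Hspd1 at 185 FPKM and Hsp90aa1 at 141 FPKM, then by Hspe1 at 69.6 FPKM. Each of these steps was larger than the spread of the ratio between the neighbours over the 10 mice. Hspa1b, Hspb1, Hsph1, Bag3 and Dnajb1 followed with means from 41.8 to 23.7 FPKM, and neighbours in that stretch did not differ beyond their spread. Hspa1a came last at 17.4 FPKM. In vehicle-treated TNBS mice Hspb1 stood at 101 FPKM, between Hsp90aa1 and Hspe1 and within the spread of both, while Hspa1b, at 13.9 FPKM, did not differ beyond its spread from Hsph1 and stood above Hspa1a alone, which was at 5.11 FPKM.

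**Figure D2:**
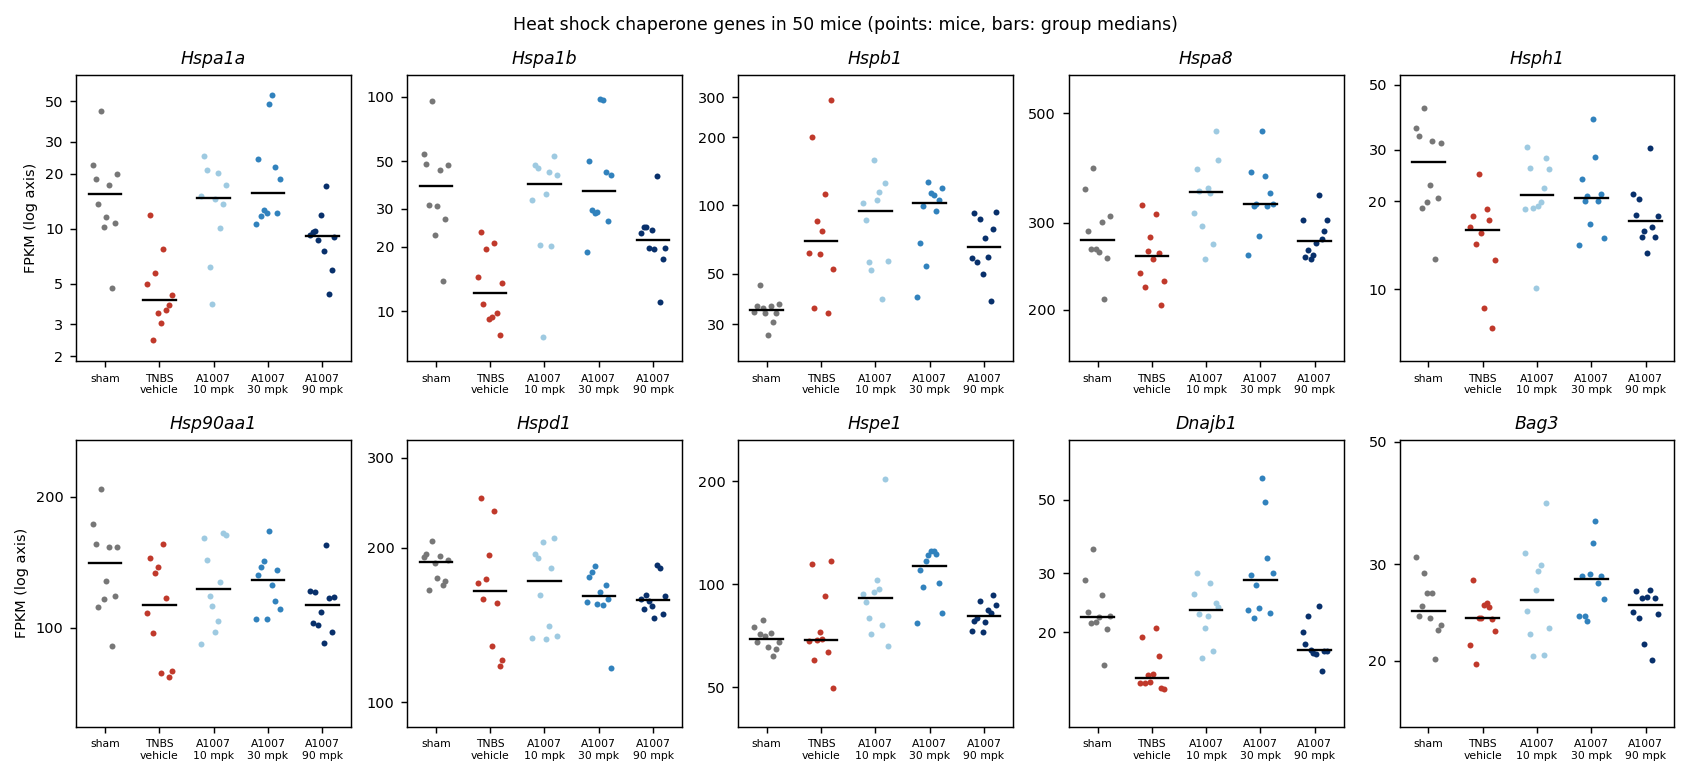
Level of each heat shock chaperone gene in FPKM on a log axis, 1 panel per gene, with 1 point per mouse and a bar at the median of each of the 5 groups of 10 mice. Hspa1a and Hspa1b are low in the vehicle mice and higher at 10 and 30 mpk, Dnajb1 at 30 mpk lies above all vehicle mice, and Hspb1 is wide in the vehicle group.

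In vehicle-treated TNBS mice both inducible HSP70 genes and the HSP70 partners Hsph1 and Dnajb1 were lower, and Hspb1 was higher, than in sham mice. Of the 10 genes 4 were called lower (Hspa1a, Hspa1b, Hsph1 and Dnajb1) and 1 higher (Hspb1), at an adjusted p under 0.05 in edgeR's quasi-likelihood test with Benjamini-Hochberg adjustment over all genes. Among all tested genes 13.3% were called lower and 18.4% higher. The median log2 change of the 10 genes was −0.24, against 0.02 over all genes.

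Hspa1a and Hspa1b, near-identical genes on chromosome 17 (GRCm39 chr17:35188166-35191132 and chr17:35175412-35178214, minus strand), encode the HSP70 that is made on stress. Hspa1a (ENSMUSG00000091971) ranged from 4.73 to 44.0 FPKM in sham mice with a median of 15.6, and from 2.44 to 11.96 FPKM in vehicle mice with a median of 4.08. The groups overlapped, but 6 of 10 vehicle mice lay below the lowest sham mouse. Hspa1a fell to 29.5% of sham, a log2 change of −1.76 (SE 0.34, edgeR adjusted p = 0.000591). Hspa1b (ENSMUSG00000090877) had medians of 38.5 FPKM in sham and 12.2 FPKM in vehicle mice and fell to 33.1% of sham (log2 −1.60, SE 0.29, edgeR adjusted p = 0.000333). Of the 100-base stretches of the Hspa1a transcript 47.1% also occur in Hspa1b (GENCODE vM21), so how reads were divided between the genes is uncertain. The sum of their counts, which that division touches less, changed by −1.65 (SE 0.30, edgeR adjusted p = 0.000356). Sham replicate 4, the highest sham mouse for 8 of the 10 genes, moved these values to −1.495 for Hspa1a and −1.38 for Hspa1b when it was left out, and both stayed called.

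Dnajb1 (ENSMUSG00000005483, chr8:84334822-84339282, plus strand) encodes HSP40, the J-domain partner that hands substrates to HSP70. It ranged from 15.9 to 35.6 FPKM in sham mice with a median of 22.3, and from 13.5 to 20.6 FPKM in vehicle mice with a median of 14.5. Of 10 vehicle mice 7 lay below the lowest sham mouse, and the gene fell to 66.4% of sham (log2 −0.59, SE 0.11, edgeR adjusted p = 0.000476). Hsph1 (ENSMUSG00000029657, chr5:149537752-149559841, minus strand) encodes HSP110, which resets HSP70 by exchanging its nucleotide. Its median was 27.2 FPKM in sham and 15.9 FPKM in vehicle mice, and it fell to 56.5% of sham (log2 −0.82, SE 0.20, edgeR adjusted p = 0.004).

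Hspb1 (ENSMUSG00000004951, chr5:135916773-135918417, plus strand) encodes HSP25, a small chaperone that holds unfolded proteins without using ATP. It stayed between 26.8 and 44.5 FPKM in sham mice, with a median of 34.6, and ran from 33.7 to 290 FPKM in vehicle mice, with a median of 69.7. The vehicle group was wide, and 8 of its 10 mice lay above the highest sham mouse. Hspb1 rose 3.04-fold (log2 1.60, SE 0.36, edgeR adjusted p = 0.00213). Of its transcript's 100-base stretches 42.7% also occur in a processed copy, Hsp25-ps1. The share of stretches that also occur in other genes was 62.8% for Hspa8, 47.5% for Hsp90aa1, 26.9% for Hspd1 and 20.4% for Hspe1, so the levels of these genes are uncertain to the extent that reads were divided with the copies. It was 0 for Hsph1, Dnajb1 and Bag3.

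The other 5 genes did not pass the test between vehicle and sham. Hspa8 (ENSMUSG00000015656, chr9:40712280-40721383, plus strand) had medians of 277 and 257 FPKM in sham and vehicle mice and a log2 difference of −0.16. Hsp90aa1 (ENSMUSG00000021270, chr12:110657039-110669162, minus strand), the stress-inducible HSP90 that holds kinases and receptors ready, had medians of 141 and 113 FPKM and a difference of −0.32 (edgeR adjusted p = 0.0899); it was called without sham replicate 8 (−0.38, adjusted p = 0.0444) and without vehicle replicate 7 (−0.38, adjusted p = 0.0483), and adjusted p reached 0.179 under other alternatives. Bag3 (ENSMUSG00000030847, chr7:128125340-128148705, plus strand), which links HSP70 to autophagy and to small heat shock proteins, differed by −0.06. Hspd1 (ENSMUSG00000025980, chr1:55116994-55127402, minus strand) and Hspe1 (ENSMUSG00000073676, chr1:55127291-55130466, plus strand) encode HSP60 and HSP10, the barrel and the lid of the mitochondrial chaperonin, and differed by −0.12 and 0.18. Their annotated genes overlap by 112 bases on opposite strands, and the sources name no strand setting for the counting, so reads from the overlap cannot be assigned with certainty.

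Cell markers moved in the same comparison. All 6 neutrophil markers were called higher in vehicle than in sham mice, with a summed level from 1.88 to 10.8 FPKM in sham and from 27.4 to 6916 FPKM in vehicle mice. All 6 macrophage and all 5 fibroblast markers were called higher as well, beside 18.4% of all genes. Of 9 colonic epithelial markers 3 were called lower, beside 13.3% of all genes. The summed level of these 9 had a median of 6700 FPKM in sham and 4838 FPKM in vehicle mice. The part of these shifts in the chaperone differences was not tested.

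**Figure D3:**
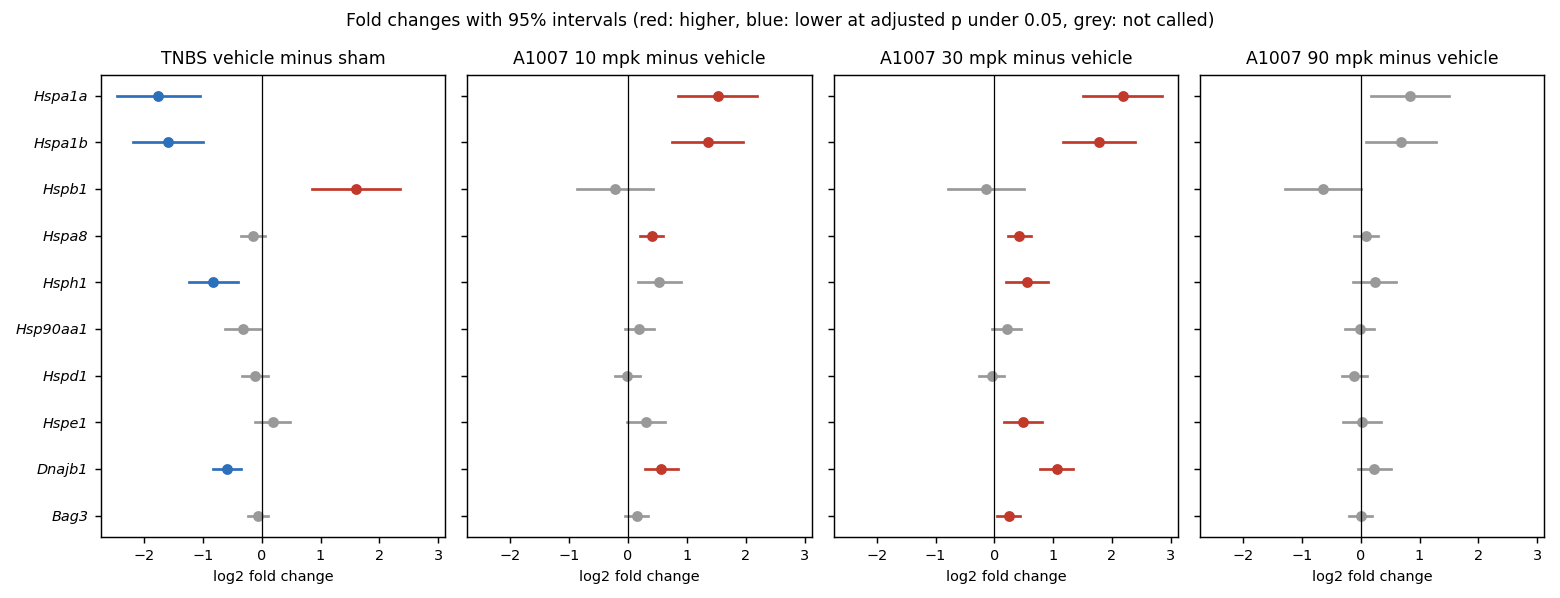
Log2 fold change of each heat shock chaperone gene in 4 comparisons (vehicle minus sham, and 10, 30 and 90 mpk minus vehicle), from edgeR, with 95% confidence intervals; red points were called higher, blue lower and grey were not called. Hspa1a, Hspa1b and Dnajb1 are blue below 0 for vehicle minus sham and red above 0 at 10 and 30 mpk, and every point is grey at 90 mpk.

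At 10 mpk of A1007 the RNA of Hspa1a, Hspa1b, Hspa8 and Dnajb1 was higher than in vehicle mice. Of the 10 genes 4 were called higher and 0 lower, beside 2.73% and 3.06% of all genes, and their median log2 change was 0.36 against −0.01 over all genes. Hspa1a ranged from 3.86 to 24.9 FPKM with a median of 14.8, and 7 of 10 mice lay above the highest vehicle mouse. It rose 2.88-fold (SE 0.33 on the log2 scale, edgeR adjusted p = 0.00706). Hspa1b had a median of 39.2 FPKM and rose 2.55-fold (edgeR adjusted p = 0.00778). Dnajb1 ranged from 16.7 to 30.2 FPKM with a median of 23.2, again with 7 mice above the highest vehicle mouse, and rose 1.48-fold (SE 0.14 on the log2 scale, edgeR adjusted p = 0.0155). Hspa8 rose 1.32-fold (edgeR adjusted p = 0.0146). Hsph1 differed by 0.53 on the log2 scale and was not called (edgeR adjusted p = 0.0681). It was called with DESeq2 (adjusted p = 0.0439), without 10 mpk replicate 5 (0.62, edgeR adjusted p = 0.0136) and without vehicle replicate 4 (0.63, edgeR adjusted p = 0.033).

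These 4 calls at 10 mpk ended under 2 alternatives. With the vehicle and 10 mpk mice alone, edgeR adjusted p was 0.0565 for Hspa1a, 0.0622 for Hspa1b, 0.127 for Hspa8 and 0.0532 for Dnajb1. None of the 10 genes was called in that fit, which called 8 of all 17928 genes against 1038 in the main fit. The exact rank-sum test called 0 of all genes, with adjusted p of 0.12, 0.175, 0.132 and 0.0939 for these 4 genes in the same order. Over all alternatives adjusted p ran from 0.000197 to 0.12 for Hspa1a and from 0.00435 to 0.0939 for Dnajb1.

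At 30 mpk 7 of the 10 genes were called higher than in vehicle mice and 0 lower, beside 13.3% and 18.1% of all genes. The 2 genes of inducible HSP70, Dnajb1, Hspa8, Hsph1, Hspe1 and Bag3 made up the 7. Their median log2 change over all 10 genes was 0.45, against −0.02 over all tested genes.

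Hspa1a at 30 mpk ranged from 10.7 to 54.0 FPKM with a median of 15.7, and 8 of 10 mice lay above the highest vehicle mouse. It rose 4.53-fold (SE 0.34 on the log2 scale, edgeR adjusted p = 1.76e-05). Hspa1b ranged from 18.9 to 97.8 FPKM with a median of 36.4, with 9 mice above all vehicle mice, and rose 3.44-fold (edgeR adjusted p = 4.52e-05). The medians of both genes at 10 and at 30 mpk were near those of sham mice, which were 15.6 and 38.5 FPKM.

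Dnajb1 separated the groups fully at 30 mpk. The 10 mice ranged from 21.99 to 58.2 FPKM with a median of 28.7, while the highest vehicle mouse held 20.6 FPKM. The gene rose 2.09-fold (log2 1.06, SE 0.14, edgeR adjusted p = 3.62e-06), and adjusted p stayed between 5.27e-11 and 0.000966 over the alternatives.

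Smaller rises were called in 4 genes. Hspa8 rose 1.34-fold (edgeR adjusted p = 0.00135), with 6 mice above the vehicle range. Hspe1 had a median of 113 FPKM against 68.8 in vehicle mice and rose 1.40-fold (edgeR adjusted p = 0.0202), while its partner Hspd1 differed by −0.05 on the log2 scale and did not pass. Hsph1 rose 1.47-fold (edgeR adjusted p = 0.0177). Its groups overlapped in 8 of 10 mice, and without 30 mpk replicate 6, the highest mouse for 6 of the 10 genes, its log2 change was 0.42 with an adjusted p of 0.0684, the highest over the alternatives, the lowest of which was 0.00682. Bag3 rose 1.19-fold (edgeR adjusted p = 0.0466). This call ended in most fits that left out 1 mouse, without the filter on low counts, with each limma pseudocount and with the rank-sum test. Over the alternatives its adjusted p ran from 0.0153 to 0.117. Hspb1, the gene called higher in vehicle than in sham mice, differed from vehicle by −0.14 (95% interval −0.79 to 0.51). Its sign turned under some alternatives, to as much as 0.28 without vehicle replicate 9, and it also turned at 10 mpk, where it ran from −0.36 to 0.19; adjusted p was at least 0.453 in all of them. Hsp90aa1 differed from vehicle by 0.21 (95% interval −0.04 to 0.46).

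At 90 mpk 0 of the 10 genes were called against vehicle in either direction, beside 6.91% of all genes called higher and 11.7% lower. At an unadjusted p under 0.05 there were 2 genes in edgeR, and after adjustment DESeq2 and limma with a pseudocount of 0.5 called 1 each. Hspa1a ranged from 4.41 to 17.2 FPKM with a median of 9.15, and its log2 difference was 0.84 (95% interval 0.179 to 1.501, edgeR adjusted p = 0.0672, range over the alternatives 0.0223 to 0.143). Without vehicle replicate 2, the highest vehicle mouse for Hspa1a, the difference was 1.06 and Hspa1a was called (edgeR adjusted p = 0.0223). Hspa1b differed by 0.69 (edgeR adjusted p = 0.099), Dnajb1 by 0.23 (edgeR adjusted p = 0.269) and Hspb1 by −0.65 (edgeR adjusted p = 0.16). Over the alternatives the Hspb1 difference ran from −0.75 to −0.23, the latter without vehicle replicate 9, with adjusted p from 0.0907 to 0.779. The median log2 change of the 10 genes was 0.06, against −0.02 over all genes.

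The doses were then compared with each other, in the fit that also gave the comparisons with vehicle. Dnajb1 at 90 mpk ranged from 15.3 to 23.9 FPKM with a median of 17.6, and 8 of 10 mice lay below the lowest mouse at 30 mpk. It fell to 56.1% of its level at 30 mpk (log2 −0.83, SE 0.14, edgeR adjusted p = 0.00124). This was the 1 gene of the 10 called lower at 90 than at 30 mpk, with 0 called higher, beside 0.273% and 0.0781% of all genes. Hspa1a differed by −1.34 (SE 0.33, edgeR adjusted p = 0.0522), also with 8 mice below the lowest at 30 mpk, and Hspa1b by −1.10 (edgeR adjusted p = 0.0829). With the 30 and 90 mpk mice alone 6 of the 10 genes were called. That fit called 3064 of all 17928 genes, where the main fit called 63. Without the 2 mice low in Xist 3 of the 10 were called. Without 90 mpk replicate 7, the highest of its group for 8 of the 10 genes, Hspa1a differed by −1.49 with an adjusted p of 0.0415. It was also called without 30 mpk replicate 1, 3, 4 or 9, with adjusted p from 0.0339 to 0.0492, and Hspa1b without 30 mpk replicate 1 (edgeR adjusted p = 0.046).

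Between 30 and 10 mpk 0 of the 10 genes were called, beside 0.429% of all genes higher and 1.35% lower, with 2 at an unadjusted p under 0.05 and 1 called by DESeq2. Dnajb1 differed by 0.50 (SE 0.14, edgeR adjusted p = 0.0503; called without 10 mpk replicate 2, 7 or 9, or 30 mpk replicate 1, 3 or 9, with adjusted p from 0.0307 to 0.045) and Hspa1a by 0.66 (SE 0.32, edgeR adjusted p = 0.259). Between 90 and 10 mpk 0 were called as well, beside 0.0335% higher and 0.0725% lower, with 4 at an unadjusted p under 0.05 and 0 by DESeq2. Hspa8 differed there by −0.31 (edgeR adjusted p = 0.174) and Dnajb1 by −0.34 (edgeR adjusted p = 0.345).

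Each dose group was also set against sham, where the 3 comparisons share the sham mice with each other and with the vehicle comparison. At 10 mpk 2 genes were called higher and 0 lower, beside 21.2% and 15.2% of all genes: Hspb1 by 1.37 (edgeR adjusted p = 4.94e-05) and Hspe1 by 0.49 (edgeR adjusted p = 0.017) on the log2 scale. At 30 mpk 5 were called higher and 1 lower, beside 31.3% and 27.7% of all genes. Hspb1 was higher by 1.46 (edgeR adjusted p = 1.13e-06), Hspe1 by 0.67 (edgeR adjusted p = 3.9e-07), Dnajb1 by 0.47, Hspa8 by 0.27 and Bag3 by 0.18, and Hspd1 differed by −0.16. The last 4 calls ended under some alternatives, where adjusted p reached 0.0606 for Dnajb1, 0.0595 for Hspa8, 0.117 for Bag3 and 0.17 for Hspd1, from lowest values of 0.0047, 0.0091, 0.0242 and 0.0135.

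At 90 mpk 2 genes were called higher than sham and 6 lower, beside 23.7% and 21.6% of all genes. Hspb1 was higher by 0.96 (edgeR adjusted p = 2.78e-05) and Hspe1 by 0.21 (edgeR adjusted p = 0.00182). Hspa1a fell by 0.93 (edgeR adjusted p = 0.0231) and Hspa1b fell by 0.91 (edgeR adjusted p = 0.0157), on the log2 scale. Hsph1 differed by −0.58, Dnajb1 by −0.37, Hsp90aa1 by −0.34 and Hspd1 by −0.23. In 1 fit of all 50 mice Hspd1 and Hspe1 were not called (adjusted p = 0.0823 and 0.298, from lowest values of 0.000122 and 0.000901 over the alternatives). Adjusted p reached 0.0762 for Hsp90aa1 without the filter on low counts (lowest 0.00964). The Hsp90aa1 call also ended with the replicate block (adjusted p = 0.0523), the rank-sum test (0.0529) and each limma pseudocount (0.0582 to 0.0587). For Hspa1a adjusted p reached 0.051 in limma with a pseudocount of 0.1 (lowest 0.00795). The median log2 difference of the 10 genes from sham was −0.08 at 10 mpk, 0.23 at 30 mpk and −0.28 at 90 mpk.

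Immediate early genes, which cells switch on within minutes of a stimulus, moved in the same comparisons. Of 12 such genes 6 were called higher at 10 mpk than in vehicle mice, and 10 higher and 1 lower at 30 mpk. At 90 mpk 0 were called higher and 1 lower, and 11 were lower at 90 than at 30 mpk. The shares of all genes called higher and lower than vehicle were 2.73% and 3.06% at 10 mpk and 13.3% and 18.1% at 30 mpk. They were 6.91% and 11.7% at 90 mpk, and 0.273% were lower at 90 than at 30 mpk. The summed level of the 12 genes had medians of 290.5 FPKM in sham, 292 in vehicle, 581 at 10 mpk, 886 at 30 mpk and 322 at 90 mpk. For correlation, each gene was taken as log2 CPM (read counts scaled to library size) with its group means removed. The mean over the 12 genes was then formed per mouse. Hspa1a followed this mean weakly over the 50 mice (Pearson r = 0.30, Spearman rho = 0.26, permutation p adjusted over 120 such relations 0.259 and 0.317, r = 0.22 without the 2 farthest mice). Dnajb1 gave r = 0.44 and rho = 0.35 (adjusted permutation p = 0.05 and 0.19, r = 0.40 without the 2 farthest mice). Hspb1, which was not called between any dose and vehicle, gave r = 0.54 and rho = 0.55 (adjusted permutation p = 0.03 and 0.0252, r = 0.49 without the 2 farthest mice). Bag3 gave r = 0.45 and rho = 0.49 (adjusted permutation p = 0.078 and 0.0498). Hspe1 gave r = 0.35 and rho = 0.47 (adjusted permutation p = 0.247 and 0.0498). Both were called higher than vehicle at 30 mpk. No other gene of the 10 fell below 0.05 by either measure against the immediate early genes. Among the relations with other marker lists, Hspb1 followed skeletal muscle markers (r = 0.47, rho = 0.47, adjusted permutation p = 0.0921 and 0.0498). Hspd1 followed proliferation markers (r = 0.56, rho = 0.35, adjusted permutation p = 0.05 and 0.22). Smooth muscle markers also moved: 3, 5 and 4 of 10 were called higher than vehicle at 10, 30 and 90 mpk, with medians of the summed level of 2461 FPKM in vehicle mice and 3115, 3363 and 3122 FPKM at the 3 doses. Neutrophil markers also differed, with 4, 6 and 6 of 6 called lower than vehicle at the 3 doses and medians of the summed level of 343 FPKM in vehicle mice and 43.6, 23.4 and 18.2 FPKM at 10, 30 and 90 mpk. Macrophage markers were called lower in 2, 5 and 6 of 6 and fibroblast markers in 0, 4 and 4 of 5, and markers of neurons and glia higher in 2, 3 and 2 of 5. The part of these sets in the chaperone differences was not tested.

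Hspb1 and the inducible HSP70 genes moved in opposite directions between vehicle and sham mice. They were put into a ratio of FPKM, chosen after the values were seen. Because both parts had already been called in that comparison, the ratio test of vehicle against sham gives no separate support. The ratio tests at 10 and 30 mpk against vehicle give none either, because the inducible HSP70 genes had already been called there. The same holds for each dose against sham, where Hspb1 had already been called. At 90 mpk against vehicle neither part had been called, but the ratio was chosen on the same values. Against vehicle, Hspb1 itself was not called at any dose, with log2 differences of −0.23, −0.14 and −0.65 at 10, 30 and 90 mpk. Hspb1 over the sum of Hspa1a and Hspa1b had a median of 0.601 in sham mice (0.252 to 1.66) and of 3.68 in vehicle mice (2.53 to 25.1). All 10 vehicle mice lay above all sham mice, with a log2 difference of 2.76 (exact permutation test, two-sided, adjusted over 14 ratio tests, p = 5.04e-05). The median was 1.84 at 10 mpk, 1.38 at 30 mpk and 2.57 at 90 mpk. Each dose was lower than vehicle, by −1.28 at 10 mpk (adjusted exact permutation p = 0.0137), −1.61 at 30 mpk (p = 0.000329) and −1.05 at 90 mpk (p = 0.00451), and each was higher than sham, by 1.48, 1.15 and 1.71. With each mouse left out in turn, the highest unadjusted exact permutation p of these 7 differences was 0.0246.

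The RNA ratio between the genes of the lid and the barrel of the mitochondrial chaperonin also differed between groups. It was likewise chosen after the values were seen. Hspe1 had already been called higher than sham at each dose and higher than vehicle at 30 mpk. Hspd1 had been called lower than sham at 30 and 90 mpk. The ratio tests of those comparisons therefore give no separate support. Hspe1 over Hspd1 had a median of 0.376 in sham mice (0.349 to 0.433), 0.402 in vehicle mice (0.375 to 0.997), 0.476 at 10 mpk, 0.672 at 30 mpk (0.491 to 0.807) and 0.503 at 90 mpk (0.45 to 0.625). At 30 and at 90 mpk all 10 mice lay above every sham mouse, with log2 differences of 0.82 and 0.43 (adjusted exact permutation p = 5.04e-05 for each). Vehicle differed from sham by 0.26 (adjusted exact permutation p = 0.0137) and 30 mpk from vehicle by 0.56 (p = 0.00451), while 10 and 90 mpk differed from vehicle by 0.30 (p = 0.154) and 0.17 (p = 0.28). Vehicle replicate 9 held the ratio of 0.997. Without it vehicle differed from sham by 0.14, and the differences from vehicle were 0.43 at 10 mpk (unadjusted exact permutation p = 0.012) and 0.29 at 90 mpk (p = 0.00152). With each mouse left out in turn, the highest unadjusted exact permutation p for vehicle against sham was 0.036, without sham replicate 2.

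**Figure D4:**
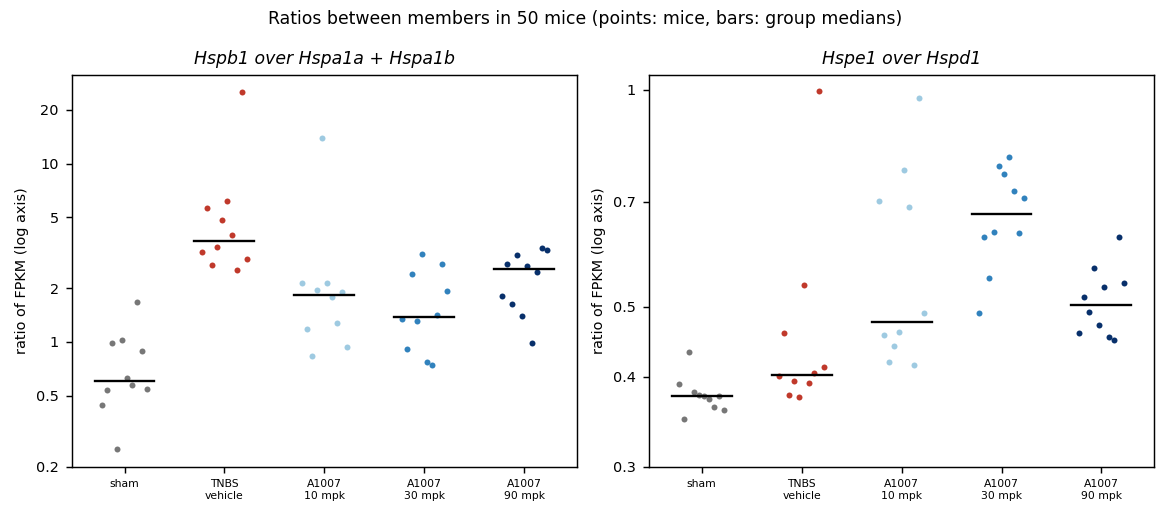
The ratio of Hspb1 to the summed Hspa1a and Hspa1b level, and of Hspe1 to Hspd1, both from FPKM on a log axis, with 1 point per mouse and a bar at the median of each group of 10. The first ratio is above all sham mice in every vehicle mouse, with medians of 3.68 and 0.601, and the second is above all sham mice in every mouse at 30 and 90 mpk.

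Within groups most of the 10 genes varied together from mouse to mouse, to different degrees. After each group's mean log2 CPM (read counts scaled to library size) was removed, 41 of 45 pairs had a positive Spearman rho over the 50 mice, the median was 0.46 and the range was −0.09 to 0.94. Of the 45 pairs 30 passed an adjusted permutation p of 0.05. Hspa1a and Hspa1b had rho = 0.94 and Pearson r = 0.95, the closest pair, and share reads. Hspa1a and Dnajb1 had rho = 0.825 and r = 0.835, and Hsph1 and Hsp90aa1 had rho = 0.87 and r = 0.83; the permutation p of these pairs, 1e-05, is the smallest that 100000 permutations can give. Hsph1 had rho = 0.77 with Hspa1b, and Hspa8 had rho = 0.73 with Hspa1b and 0.72 with Hsph1. Bag3 had rho = 0.67 with Dnajb1. Hspb1 followed Bag3 (rho = 0.67, r = 0.64) and Hspe1 (rho = 0.66, r = 0.71), but had rho = −0.09 with Hsp90aa1 and −0.08 with Hsph1. The chaperonin partners Hspd1 and Hspe1 had rho = 0.32 and r = 0.42 (adjusted permutation p for rho = 0.0633).

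**Figure D5:**
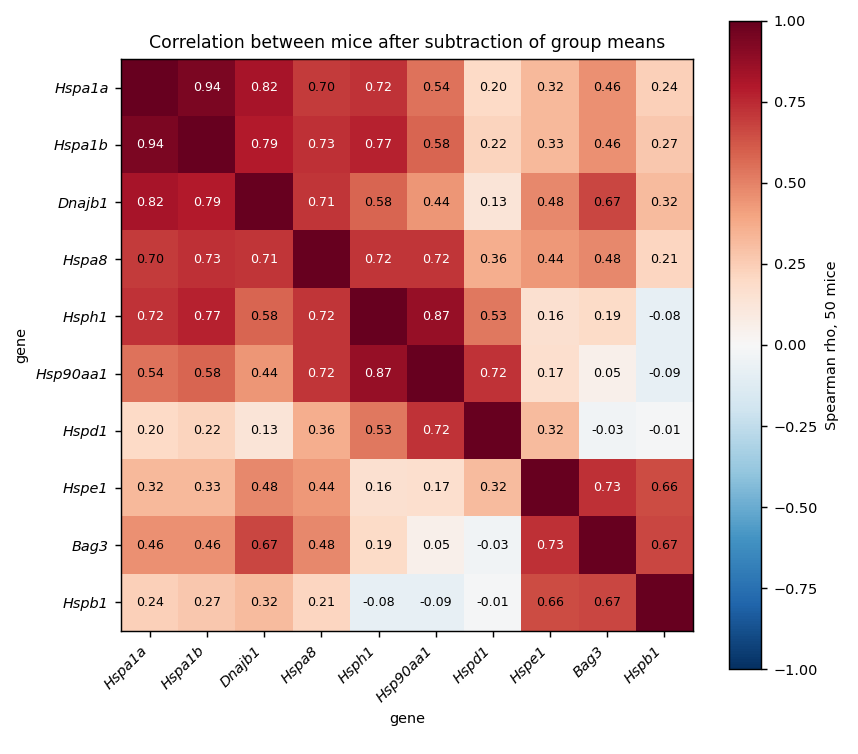
Spearman rho between heat shock chaperone genes over 50 mice after removal of each group's mean log2 CPM; colour and printed values give rho. Values are high among Hspa1a, Hspa1b, Dnajb1, Hspa8 and Hsph1 (0.58 to 0.94), and Hspb1 is near 0 against Hsph1, Hsp90aa1 and Hspd1.

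The genes most like each of the 10 over the 50 mice were then taken by the same measure, with the 10 themselves, predicted genes and pseudogenes left out of the ranking. Dnaja1, another J-domain partner of HSP70, came first for Hsph1 (rho = 0.95), Hspa1b (0.79) and Hspa1a (0.74). Stip1, which joins HSP70 to HSP90, came first for Hspa8 (0.80), and Hsp90ab1, the HSP90 made at all times, came first for Hsp90aa1 (0.86). Hspa9, the mitochondrial HSP70, came first for Hspd1 (0.90). Hspe1 was most like Rbm8a (0.92), Hspb1 most like Bcl7c (0.87), Bag3 most like Eif1b (0.86) and Dnajb1 most like Sfn (0.65), a value below its rho with Hspa1a. For Bag3 the second gene was Rpl35a (0.84), a ribosomal protein gene.

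Beyond the 10 genes, 85 other chaperone and co-chaperone genes in 9 lists were followed, of which 83 were tested. Between vehicle and sham 22 of the 83 were called higher and 10 lower, where 18.4% and 13.3% of all genes were, and their median log2 change was 0.10. Chaperones of the endoplasmic reticulum made up 11 of the 22 higher calls, of 13 genes tested: Serpinh1, the collagen chaperone, rose by 1.69 on the log2 scale, Sdf2l1 by 0.78 and Pdia6 by 0.47. Of 6 other small heat shock proteins 3 were called higher, as Hspb1 was: Hspb7 rose by 1.07, Cryab by 0.99 and Hspb8 by 0.49. Of 12 co-chaperones of HSP90 and HSP70 3 were called and all were lower, Ahsa2 by −0.43, Chordc1 by −0.42 and Fkbp4 by −0.27. Of 12 other J-domain genes 4 were called lower, among them Dnaja1 by −0.49, and 1 higher. Of the heat shock factors and their regulators Ier5 rose by 0.54, and none of the 8 subunits of the cytosolic chaperonin TRiC was called in edgeR, with Cct2 at 0.14 (adjusted p = 0.145).

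Against vehicle the 83 genes gave 4 higher and 2 lower calls at 10 mpk, 13 and 10 at 30 mpk, and 2 and 7 at 90 mpk. Over all genes 2.73% were called higher and 3.06% lower at 10 mpk, 13.3% and 18.1% at 30 mpk, and 6.91% and 11.7% at 90 mpk. The median log2 change of the 83 genes was close to 0 at each dose: 0.003, 0.004 and −0.049. Fkbp4, an HSP90 co-chaperone of steroid receptors, was called higher at each dose, by 0.37, 0.60 and 0.39 on the log2 scale. Hsp90ab1 was called higher at 10 and 30 mpk, by 0.31 and 0.22. At 30 mpk Dnaja1 was called higher by 0.40, Hsf1, which encodes the heat shock factor itself, by 0.22, and Hspb2 by 0.78, while Serpinh1 differed by −0.68, Canx by −0.30 and Fkbp5 by −0.58, all called lower. Hspa13, an HSP70 of the endoplasmic reticulum, was called lower at each dose, by −0.28, −0.46 and −0.43. Hscb, a mitochondrial J-domain protein of iron-sulfur cluster assembly, was called higher at 30 mpk by 0.62 and at 90 mpk by 0.30.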

How the data were processed

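The submitters trimmed reads with cutadapt 1.9.1, aligned them with HISAT2 2.2.1 and counted them per gene with HTSeq 0.6.1 on build GRCm39, per the submitters' processing notes, which also list DESeq2; they name no strand setting and no treatment of reads that map to several places. The table the authors deposited holds raw counts per gene and mouse. Beside them the authors deposited FPKM, which are the counts per kilobase of exon length scaled to the library's total (99.997% of the values recomputed from the counts matched), and the exon length.

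Counts were tested with edgeR 4.0.16 (R 4.3.3): genes with enough counts (filterByExpr, minimum 10) were kept, libraries were scaled by TMM over all 50 mice, and the quasi-likelihood test was run over 17928 genes with Benjamini-Hochberg adjustment. Comparisons with sham used the 20 mice of the 2 groups. Comparisons among TNBS groups used all 40 TNBS mice. A gene was called at an adjusted p under 0.05. FPKM were used for levels and ratios, and log2 CPM with group means removed for correlations. Ranges of levels and ratios cover the spread between mice. The 95% intervals give the uncertainty of the estimated log2 difference between groups. Depth is given as the total of counts per library. Alternatives were DESeq2 size factors, no filter, a replicate block, the summed Hspa1a and Hspa1b counts, other sets of mice, limma 3.58.1 on log2(FPKM + 0.1, 0.5 or 1), an exact rank-sum test, DESeq2 1.42.0, each mouse left out in turn and, chosen after seeing the data, the mice low in Xist left out. The tests were tried on simulated counts first. All 10 genes are described. Of each list up to 3 called genes with the smallest p per comparison with sham or vehicle were eligible for naming, and where none was called the most abundant one. The 10 genes and the lists were chosen with earlier results of these data known. Start-site windows came from RefSeq, GRCm38.p6, and transcripts for the check of shared stretches from GENCODE vM21.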

Additional observations from a re-analysis of the deposited data

Results flagged for a closer look

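In 7 of 50 gene and group combinations 1 mouse stood far from the other 9, where chance alone gives about 1 in 20 for independent, normally distributed values. The 7 came from 4 mice, and the genes vary together, so they are not independent. Sham replicate 4 held 44.04 FPKM of Hspa1a (next highest 22.41) and 95.67 FPKM of Hspa1b (next 54.34). At 90 mpk, replicate 7 held 42.58 FPKM of Hspa1b (next 24.7), 30.3 FPKM of Hsph1 (next 21.2) and 155.05 FPKM of Hsp90aa1 (next 121.43). At 30 mpk, replicate 10 held 116.63 FPKM of Hspd1, the lowest of its group (next lowest 154.83). At 10 mpk, replicate 9 held 203.66 FPKM of Hspe1 (next highest 103.02). Without that mouse Hspe1 differed from vehicle by 0.12 on the log2 scale in place of 0.31, and it was not called with or without it. Without 90 mpk replicate 7 the number of chaperone genes called against vehicle was still 0.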

How the results depend on the processing

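None of the 10 genes called in a comparison reversed its direction under any alternative run. Each mouse in turn was left out of the vehicle and dose comparisons: the number of the 10 genes called was 5 to 6 for vehicle against sham. Against vehicle it was 4 to 5 at 10 mpk, 5 to 7 at 30 mpk, 0 to 1 at 90 mpk. Between doses it was 0 to 1 for 30 against 10 mpk, 1 to 3 for 90 against 30 mpk, always 0 for 90 against 10 mpk. Without vehicle replicate 2 the number at 90 mpk against vehicle was 1. For 10 mpk against vehicle the 4 calls became 0 with the 2 groups alone and 0 with the rank-sum test. Calls over all genes fell from 1038 in the main fit to 8 and 0 in that order. For 90 mpk against vehicle the 0 calls became 1 with limma at pseudocounts of 0.1 and 0.5, 1 with the rank-sum test, 1 with DESeq2 and 2 with the 2 groups alone. For 30 against 10 mpk the 0 calls became 1 with all 50 mice in 1 fit, with DESeq2 and without the mice low in Xist. Calls over all genes went from 319 in the main fit to 869, 749 and 826 in that order. For 90 against 30 mpk the 1 call became 6 with the 2 groups alone and 3 with all 50 mice. Calls over all genes went from 63 in the main fit to 3064 and 437 in these 2 fits. The 1 call became 5 with the rank-sum test, 3 with DESeq2 and 3 without the mice low in Xist. For 30 mpk against sham the 6 calls became 2 without the filter and 3 with each limma pseudocount. The causes were not tested.

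Same-numbered mice of different groups had a mean correlation of 0.02 (−0.292 to 0.479), against −0.002 for other numbers. Of 100 such pairs 27 exceeded 0.1, and 10 of 50 libraries were closest to a mouse of their own number. What chance would give was not computed, and no pairing entered the main fits. With the replicate block 1 gene was called for 90 mpk against vehicle, 1 for 30 against 10 mpk, 5 for 90 against 30 mpk and 3 for 30 mpk against sham. Depth was similar between groups, and the lowest count of Hspa1a in a mouse was 122 reads.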
